A study of Mus musculus with 5 samples.

Results

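The 10 genes described here carry out MHC class II antigen presentation in the mouse: H2-Aa, H2-Ab1, H2-Eb1, Cd74, H2-DMa, H2-DMb1, H2-DMb2, H2-Oa, H2-Ob and Ciita. They were chosen by symbol, without use of their measured values, and all 10 were found among the 32285 gene rows of the count matrices. They were followed through the islets of 5 NOD.Cg-Prkdcscid/J (NOD.SCID) mice by droplet single-cell RNA sequencing (10x Genomics 3′ v3), with 1 library per mouse. The 2 HC mice (7 and 9 weeks old) were fed 20% HC, hydrolyzed casein, and the 3 chow mice (8, 10 and 10 weeks old) were fed chow. All 5 carry the scid mutation on the NOD background. Islets were picked by hand and dissociated with trypsin. Library names start with SKY (HC mouse 2, chow mice 2 and 3) or FUN (HC mouse 1, chow mouse 1), and what the prefix marks is not stated in the labels. The title of HC mouse 2 calls it chow-fed, against its diet label. The separate mice are the replicates, but diet, age and prefix are only partly separable in 5 mice.

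Class II molecules display peptides from the endosomes of a cell to CD4 T cells. The alpha and beta chains assemble with the invariant chain, which fills the groove until H2-DM exchanges its remnant for a peptide, and H2-DO restrains H2-DM. Transcription of the classical class II chains depends on CIITA, a coactivator that docks on factors bound to the X and Y boxes of class II promoters. Dendritic cells, macrophages and B cells are the usual class II cells, and interferon gamma can induce class II in endothelial and epithelial cells. NOD mice carry the I-Ag7 class II haplotype, which has a particular beta chain encoded by H2-Ab1, and make no I-E at the cell surface because the alpha gene H2-Ea is not transcribed. The scid mutation leaves mice without mature T and B cells.

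In the GRCm38 annotation, 8 of the 10 genes lie on chromosome 17 between positions 34092340 and 34316674, within 224 kb. H2-DMa (chromosome 17, 34119541 to 34139101, plus strand) overlaps Brd2 on the opposite strand over 3094 bases. It also overlaps the gene CR974462.3 on its own strand over 591 bases. Ciita, on chromosome 16 (10480059 to 10528418, plus strand), overlaps Dexi on the opposite strand over 25888 bases. Whether the counting used strand is not given in the sources used here, so reads of these overlaps may not all belong to the members. H2-Oa is covered over its whole 2895 bases by an antisense gene. H2-DMb1 and H2-DMb2 are paralogs with stretches in common: 22.7% of the 50-base stretches of H2-DMb1 transcripts also occur in H2-DMb2. Within the last 500 bases, near which 3′ reads start, the share was 27.4% for H2-DMb1 and 0% for H2-DMb2, so the count of H2-DMb1 in particular is uncertain.

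Some promoters of these genes share short motifs, and they are shown because class II genes are known to be regulated through such letters. The RefSeq promoter table (GRCm38.p6, 250 bases before to 50 after a start) matched 7 of the 10 genes with 8 starts; H2-Ab1, Cd74 and Ciita were not in it. The letters TGATTGG, the core of the Y box, were searched on both strands, as were all motifs here, and occurred in 7.80% of all 32544 promoters and in those of 6 members, H2-Aa, H2-Eb1, H2-DMb1, H2-DMb2, H2-Oa and H2-Ob. An X box core written as AACNNATG occurred in 8.86% of all promoters and in 4 members. X core and then Y core, 10 to 30 bases on, occurred in 15 promoters of the genome (0.0461%), and 4 of those 15 were H2-Eb1, H2-DMb1, H2-DMb2 and H2-Ob. The letters searched were chosen after these promoters had been seen, so the shares are a description. Each line gives 47 bases, 5′ to 3′ on the strand of the gene, ending with the Y core, with the matched letters in capitals. The windows are chr17:34287867-34287913 (minus strand) for H2-Aa and, on the plus strand, chr17:34305766-34305812 for H2-Eb1, chr17:34145117-34145163 for H2-DMb2, chr17:34238806-34238852 for H2-Ob and chr17:34092294-34092340 for H2-Oa.
H2-Aa: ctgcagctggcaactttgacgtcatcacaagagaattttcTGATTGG
H2-Eb1: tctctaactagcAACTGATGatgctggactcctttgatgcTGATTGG
H2-DMb2: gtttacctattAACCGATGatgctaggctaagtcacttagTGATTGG
H2-Ob: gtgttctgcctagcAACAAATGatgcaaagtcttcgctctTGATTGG
H2-Oa: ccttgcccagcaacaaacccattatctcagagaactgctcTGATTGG
In these 5 lines the Y core starts 45 to 92 bases before the transcription start, and 18 to 21 bases separate it from the X core where the X letters matched. H2-DMa matched neither motif at its 2 starts, which says only that these letters are not in its windows.

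After filtering, 22758 cells remained, 3656 to 5122 per mouse, from libraries of 28722244 to 39624978 UMIs. Between 4 and 14 cell barcodes were shared by each of the 10 pairs of libraries. Clusters were formed without the 10 genes, and named from markers that do not include them: 10809 beta, 4891 alpha, 2292 delta, 965 endothelial, 454 macrophage, 337 stromal, 289 ductal and 144 acinar cells. A cluster of 181 cells led by Ccl17, Mgl2, Lsp1 and Cd52 stayed unnamed, since only Cd209a of its 10 leading genes was a dendritic marker, and is called the Ccl17 cluster. All 16 dendritic markers had UMIs in it, and 13 had UMIs in macrophages. Flt3 had 21 UMIs against 1 in macrophages, Zbtb46 18 against 1 and Xcr1 84 against 1. Siglech ran the other way, with 8 against 38 UMIs (13.4 against 31.4 CPM). Itgax (68 against 84), Batf3 (41 against 56) and Cst3 (9746 against 15744) also had fewer UMIs than in the more numerous macrophages, but a higher CPM. Of 9 B cell markers, 4 had UMIs in the Ccl17 cluster, at a summed 32.2 to 189 CPM, and 6 in macrophages, at 87.4 to 163 CPM. Ighm gave most of them, with 34 UMIs in the Ccl17 cluster (14.4% of cells) and 86 in macrophages (16.3%), while Pax5 was at 0 in both and Ms4a1 had 1 UMI in the Ccl17 cluster and none in macrophages. Their part in the class II levels was not tested. Of 12 T and NK cell markers, 11 had UMIs in the Ccl17 cluster, but not Cd3e, with a summed level of 16.1 and 124 CPM in HC mice 1 and 2 and 241, 0 and 175 in chow mice 1, 2 and 3. Doublets were not called, and the macrophage sums hold much endocrine RNA: all 11 beta cell markers had UMIs there, together 102999 and 99164 CPM in HC mice 1 and 2 against 284670, 246696 and 206257 in chow mice 1, 2 and 3. Macrophage levels below are over all 454 cells, and those of Cd74 and H2-Aa are also given without the macrophages led by other types' genes.

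Class II RNA was highest in macrophages and the Ccl17 cluster. Levels are given as CPM, the UMIs of a gene for every 1000000 UMIs of the summed cells of a type in a mouse. They come from 3′ ends and are compared between cell types and mice, not between genes. Cd74, the invariant chain (chromosome 18, 60803848 to 60812652, plus strand), stood at 15325 to 29145 CPM in macrophages (mean 19361 ± 6417, SD, n = 5) and 19822 to 27688 in the Ccl17 cluster (22933 ± 3094). Without the macrophages led by other types' genes, which are described further on, the macrophage level was 40516 and 24409 CPM in HC mice 1 and 2 and 40027, 31026 and 19670 in chow mice 1, 2 and 3. In ductal cells it stood at 279 ± 182 and in endothelial cells at 162 ± 70.1, and in stromal cells at 88.7 ± 111 (SD, n = 5 each). Acinar cells followed with 13.4 ± 17.3, alpha cells with 8.22 ± 10.3, delta cells with 6.495 ± 4.26 and beta cells with 1.64 ± 0.673. The mean of the macrophages was below that of the Ccl17 cluster over all cells and above it, at 31130 ± 9271, without those cells. The Ccl17 cluster was not cleared of such cells, so these means do not rank the 2 clusters. In it the 11 beta cell markers together had 83692 and 82198 CPM in HC mice 1 and 2. Chow mice 1, 2 and 3 had 6991, 12993 and 132632. The 11 alpha cell markers had 482 to 112260 CPM there by mouse. The ranges of the mice overlapped between macrophages and the Ccl17 cluster, and between each other pair of neighbours in this order from ductal cells to delta cells. The gap between these 2 clusters and every other named type was wider than the spread of the mice.

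**Figure D1:**
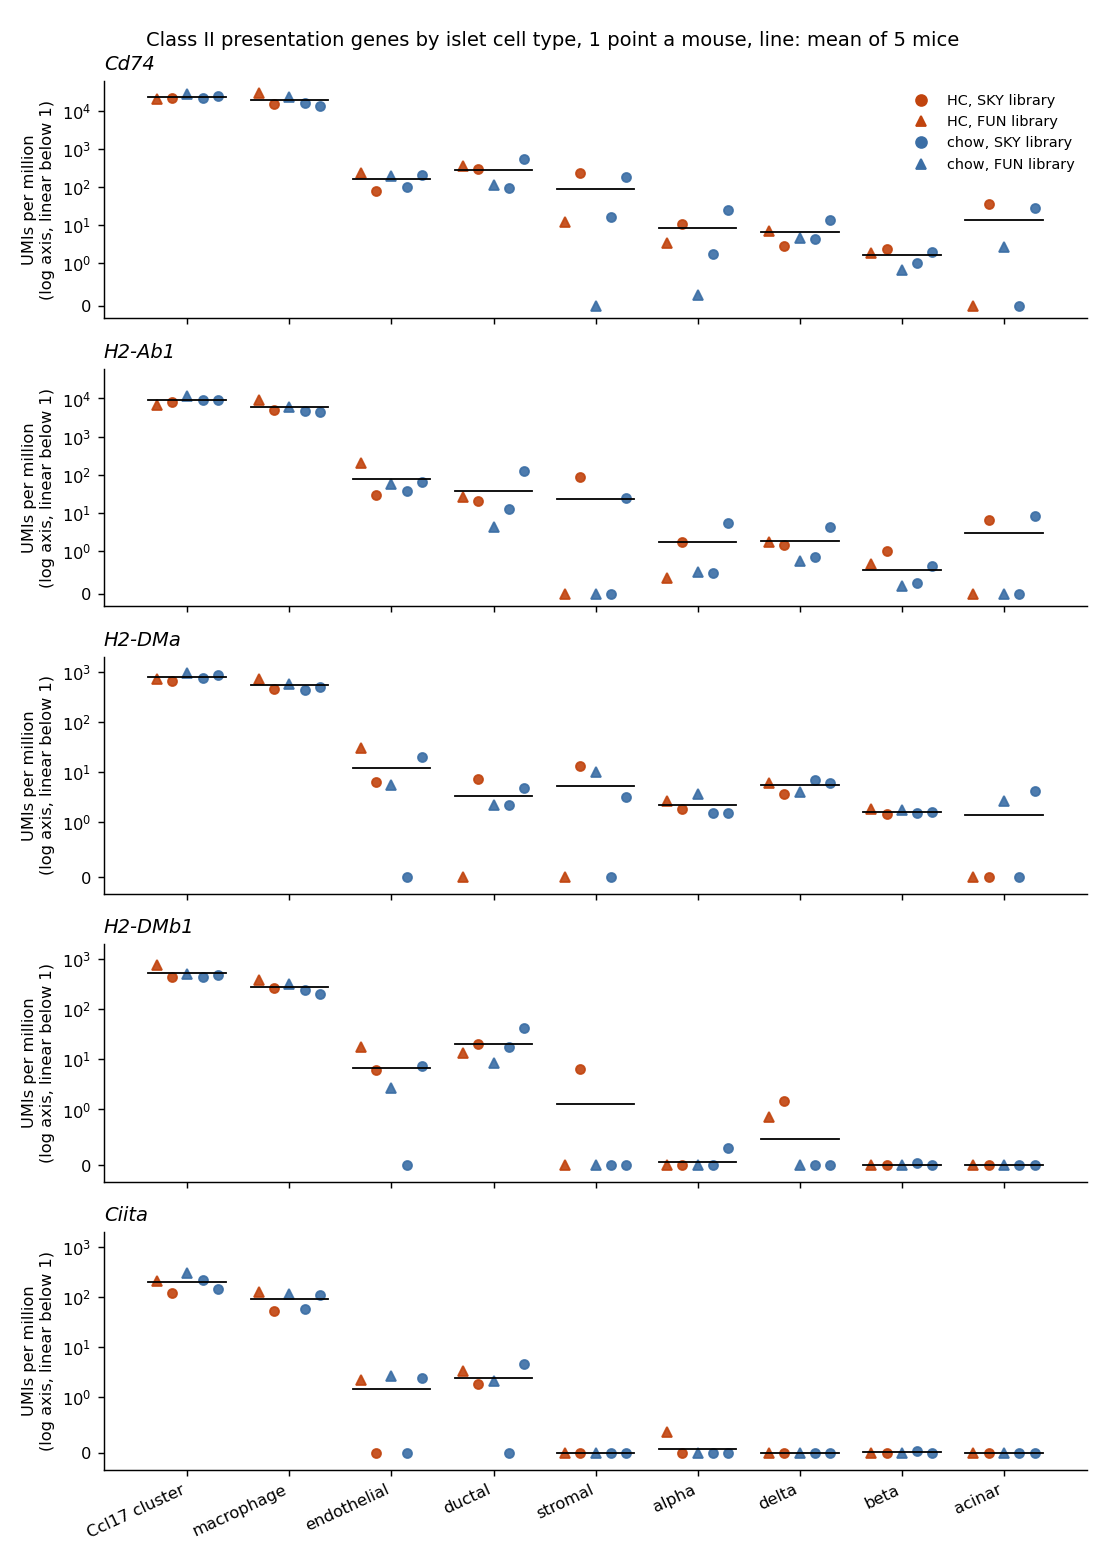
Levels of Cd74, H2-Ab1, H2-DMa, H2-DMb1 and Ciita by cell type, in CPM on an axis that is logarithmic above 1 and linear below. Each point is a mouse (orange HC, blue chow, circles SKY, triangles FUN) and each line the mean of 5 mice. All 5 genes are highest in the Ccl17 cluster and macrophages.

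The classical chains were likewise highest in macrophages and the Ccl17 cluster. In the Ccl17 cluster H2-Aa, the I-A alpha chain, stood at 8616 ± 1154 CPM, H2-Ab1, the I-A beta chain, at 8896 ± 1740 and H2-Eb1, the I-E beta chain, at 7563 ± 891 (SD, n = 5 each). H2-Aa stood at 5946 ± 1829 CPM in macrophages, or 9450 ± 2404 without those led by other types' genes, and at 36.7 ± 19.6 in endothelial cells (SD, n = 5 each). H2-Ab1 stood at 5882 ± 1885 in macrophages, 78.8 ± 72.6 in endothelial and 37.4 ± 48.3 in ductal cells. H2-Eb1 stood at 5915 ± 1910 in macrophages and 43.4 ± 16.4 in endothelial cells, in a strain that shows no I-E protein. H2-Eb2, a neighbouring beta chain gene, had 7 UMIs in the Ccl17 cluster and none in macrophages. In edgeR's quasi-likelihood test with the mouse as a block, H2-Aa, H2-Ab1, H2-Eb1 and Cd74 were higher in macrophages than in endothelial cells, where 43.7% of all 6200 genes tested were called and 23.5% were higher. The log2 difference of H2-Aa was 7.90 ± 0.363 (SE, adjusted p = 7.02e-06). H2-DMa, H2-DMb1, H2-DMb2 and Ciita, with 27, 16, 5 and 3 UMIs in endothelial cells, passed the filter on low counts through macrophages and not in endothelial cells alone, so no test of them is given. Of the pathway list, 16 of 23 tested genes were higher and 1 lower in macrophages. Only 15 genes of the list passed the filter in endothelial cells alone, so some of the 23 passed through macrophages. The counts are a description, as are those of the list in the other cell type contrasts. They were led by the endosomal proteases Ctsh (log2 difference 8.70 ± 0.271) and Lgmn (5.18 ± 0.196) and the thiol reductase gene Ifi30 (5.17 ± 0.226). Cd83 (7.85 ± 0.422), which encodes a protein that stabilises surface class II, followed. Whether these genes passed in endothelial cells alone is not given here. Since the clusters were made from other genes of the same cells, these p-values describe how stable a difference is over mice, not whether the types differ.

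When each cell was thinned to 1000 UMIs, which removed no cell, Cd74 had a UMI in 422 of 454 macrophages (93.0%, exact 95% interval 90.2 to 95.1) and 167 of 181 cells of the Ccl17 cluster (92.3%). The share was 18.7% of 289 ductal cells and 7.25% of 965 endothelial cells. Beta cells, which should lack the gene, give a background level of 18 of 10809 (0.167%). Without thinning the shares were 96.3%, 92.3%, 32.5%, 10.1% and 1.13%, at median depths of 1702.5, 2400, 5109, 1415 and 8060 UMIs. These intervals cover counting error only. Ductal and endothelial shares were above the beta cell share, and the beta cells were the most deeply sequenced of the 5.

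H2-DMb1 and Ciita were higher in the Ccl17 cluster than over all 454 macrophages, while the classical chains and Cd74 did not pass the test. The 80 macrophages led by other types' genes held only 52 of the 336 H2-DMb1 UMIs of macrophages and 8 of the 106 Ciita UMIs. Their RNA lowers the macrophage CPM of H2-DMb1 and Ciita, and its part in these differences was not tested. Levels of H2-DMb1 and Ciita without those cells are not given here. H2-Oa, the alpha chain of H2-DO, had 32.2 and 63.9 CPM in the Ccl17 cluster of HC mice 1 and 2 and 51.7, 109 and 49.2 in that of chow mice 1, 2 and 3. In macrophages it had 14.9 and 0 in the HC mice and 0, 4.85 and 3.87 in the chow mice. These levels, from 34 UMIs in the Ccl17 cluster and 5 in macrophages, did not overlap between the cell types. H2-Oa passed the filter on low counts through the Ccl17 cluster alone, where it is high, so its levels are a description with no test. H2-Ob, the beta chain of H2-DO, had 21 UMIs in the 181 cells of the Ccl17 cluster and 3 in the 454 macrophages, too few for the test.

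Ciita, the class II coactivator gene, had 209 and 120 CPM in the Ccl17 cluster of the HC mice and 310, 217 and 148 in that of the chow mice. In macrophages it had 124 and 53.5 in the HC mice and 117, 58.2 and 108 in the chow mice. The level was higher in the Ccl17 cluster in each of the 5 mice, with a log2 difference of 0.73 ± 0.249 (SE, edgeR adjusted p = 0.0427). H2-DMb1, a beta chain of the peptide exchanger H2-DM, had 756 and 440 CPM in the Ccl17 cluster of the HC mice and 499, 434 and 498 in that of the chow mice. In macrophages it had 387 and 262 in the HC mice and 329, 247 and 201 in the chow mice, lower within every mouse (log2 difference 0.60 ± 0.193, adjusted p = 0.0303). Of the 8 members that also passed the filter among macrophages alone, these 2 were called higher, where 18% of 3316 genes were called in either direction and 7.42% higher. With H2-Oa counted in, 3 of 9 members tested were called in all mice, 0 without HC mouse 2, 1 without chow mouse 3, and 0 among cells with under 20% insulin UMIs. H2-DMb2, the other H2-DM beta chain, had a log2 difference of 0.73 ± 0.296 (adjusted p = 0.0993). Chow mouse 2 gave only 10 cells of this cluster.

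More genes of the pathway list were lower than higher in the Ccl17 cluster. Of 33 listed regulators, interferon gamma signal genes, proteases, costimulators and further class II genes, 19 were tested, and 3 were higher and 7 lower than in macrophages. Of all 3316 genes tested, 18% were called and 7.42% were higher, so lower calls were the more frequent there too. Whether the listed genes passed the filter on low counts in the Ccl17 cluster alone was not checked. The 4 listed genes of smallest p were endosomal proteases, all lower: Ctsd by a log2 difference of -5.10 ± 0.207, Lgmn, which encodes asparagine endopeptidase, by -4.68 ± 0.321, Ctsb by -3.91 ± 0.193, and Ctss, the cathepsin that trims the invariant chain, by -2.09 ± 0.155 (SE, edgeR adjusted p from 5.2e-16 for Ctsd to 5.63e-09 for Lgmn). The median of the 19 listed genes was -0.70, against -0.03 over all genes tested. Cd74 itself had a log2 difference of -0.05 ± 0.239 (95% interval -0.52 to 0.42).

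Few endothelial cells held much of the class II RNA of their type. Of 965 cells, 183 had a UMI of H2-Aa, H2-Ab1, H2-Eb1 or Cd74, and 17 had 10 or more together, which held 362 of the 729 such UMIs (49.7%). Of the 17 cells, 8 also held 2 or more UMIs of the macrophage genes C1qb, C1qc, Tyrobp, Fcer1g, Lyz2 and Ctss, and 8 held none. In the other 948 cells H2-Ab1 had 137 UMIs (57.7 CPM), H2-Aa 38 (16.0) and Cd74 151 (63.6). Those 948 cells held 1 UMI each of C1qb, C1qc and Tyrobp and 41 of C1qa. Over all endothelial cells 17 of 19 macrophage markers had UMIs, at a summed 56.3 to 609 CPM by mouse, and their part in the class II levels was not tested. Relative to 100 Cd74 UMIs, all endothelial cells held 49.0 H2-Ab1 UMIs (95% counting interval 40.8 to 58.8), where macrophages held 30.9 (30.04 to 31.7). H2-Aa ran the other way, with 22.7 in endothelial cells (17.7 to 28.9) against 31.1 in macrophages (30.3 to 31.9). HC mouse 1 alone gave 92 of the 179 H2-Ab1 UMIs of endothelial cells.

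H2-Aa, H2-Ab1, H2-Eb1, Cd74 and H2-DMa were higher in endothelial than in beta cells, where 56.6% of 12944 genes were called and 27.4% were higher. H2-DMb1, with 16 UMIs in endothelial and 1 in beta cells, did not pass the filter on low counts in beta cells alone, so no test of it is given. The log2 difference was 5.78 ± 0.383 for H2-Ab1 (SE, edgeR adjusted p = 6.51e-10) and 1.56 ± 0.439 for H2-DMa, the H2-DM alpha chain (adjusted p = 0.00174). Of the pathway list, 15 of 26 tested genes were higher and 3 lower in endothelial cells, led, in order of p, by the interferon gamma receptor gene Ifngr1 (log2 difference 4.22 ± 0.137) and by Irf1, a transcription factor induced by interferon gamma (3.41 ± 0.148). Against stromal cells, none of 4 members tested was called in edgeR, where 31.5% of 6752 genes were, and none had an unadjusted p under 0.05. DESeq2 called none of 6. The stromal values came from 2 cells, 1 in HC mouse 2 and 1 in chow mouse 3, which held 332 of the 342 stromal class II UMIs and also 18 C1qb and 13 Tyrobp UMIs. The other 335 stromal cells held 8 Cd74 UMIs and none of H2-Aa or H2-Ab1. Without HC mouse 2, 1 member was called. Of the pathway list, 3 of 17 tested genes were higher and 7 lower in endothelial than in stromal cells, with Irf1 higher (2.39 ± 0.279) and Ctsh lower (-5.76 ± 0.407).

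Ductal cells differed from macrophages in the makeup of their class II RNA. Cd74 had 354 and 289 CPM in ductal cells of HC mice 1 and 2, and 116, 95.8 and 537 in those of chow mice 1, 2 and 3. Chow mouse 3 stood highest, and the groups overlapped. Per 100 Cd74 UMIs, ductal cells held 8.82 H2-Aa UMIs (95% counting interval 6.28 to 12.1), against 31.1 in macrophages. They held 7.56 H2-DMb1 UMIs per 100 Cd74 UMIs (5.23 to 10.6), against 1.499 in macrophages (1.34 to 1.67). In 11 ductal cells with 10 or more class II UMIs lay 291 of the 610 such UMIs, and 8 of these 11 held no UMI of the macrophage genes. The other 278 cells held 281 Cd74 and 33 H2-DMb1 UMIs but only 8 H2-Aa, 22 H2-Ab1 and 8 H2-Eb1 UMIs, with none of C1qb or C1qc, 1 of Tyrobp and 34 of C1qa. Over all ductal cells 13 of 19 macrophage markers had UMIs, at a summed 4780 to 10373 CPM by mouse, and their part in the class II levels was not tested. The 11 high cells held 1 C1qb, 0 C1qc and 5 Tyrobp UMIs, so little of this sum came from these genes. Which markers gave most of it is not given here. The H2-DMb1 level was seen in all 5 mice, at 13.5 and 20.0 CPM in HC mice and 8.60, 17.4 and 42.4 in chow mice.

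**Figure D2:**
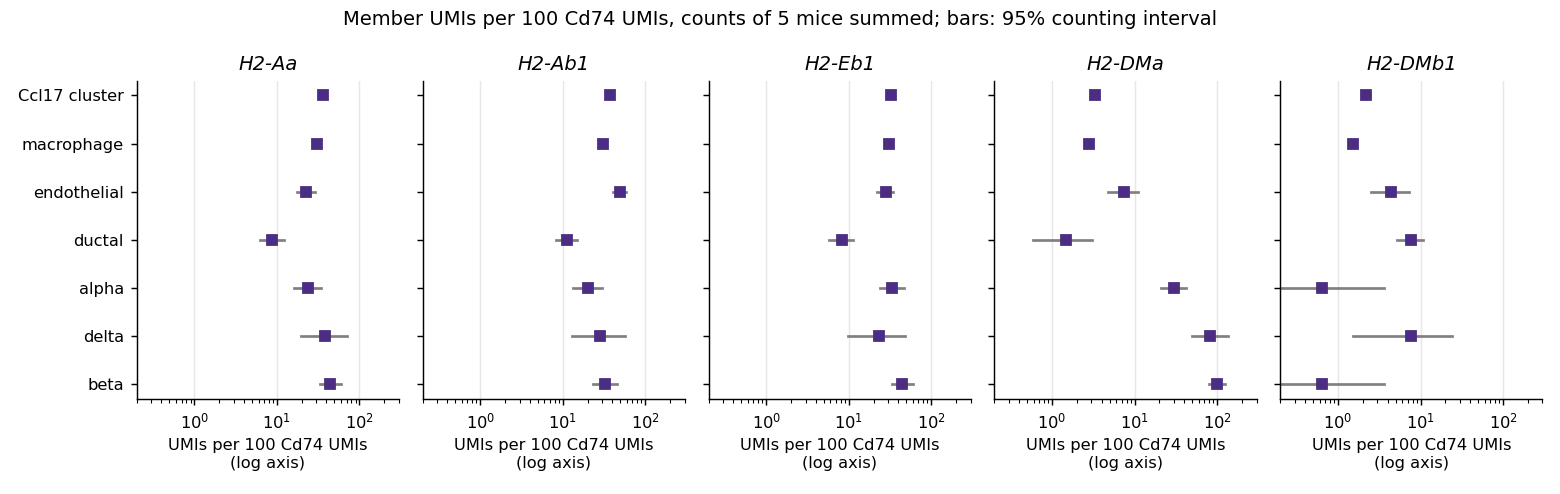
UMIs of 5 members per 100 Cd74 UMIs (log axis), with the counts of 5 mice summed, in 7 cell types; bars are 95% intervals of the counts. Ductal cells stand low for H2-Aa (8.82) and high for H2-DMb1 (7.56), and alpha, delta and beta cells stand high for H2-DMa (29.9, 82.1 and 99.4).

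In endocrine cells, the lowest in class II RNA, H2-DMa made up a larger part of it than elsewhere. In 10809 beta cells H2-DMa had 154 UMIs and Cd74 155, or 99.4 per 100 (79.0 to 125), where macrophages had 2.80 per 100 (2.58 to 3.03). H2-DMa stood at 1.79 and 1.43 CPM in beta cells of the HC mice and 1.70, 1.497 and 1.58 in those of the chow mice, a narrow range compared with Cd74 at 1.85 and 2.42 in HC and 0.851, 1.02 and 2.03 in chow mice. Delta cells held 82.1 H2-DMa UMIs per 100 Cd74 UMIs and alpha cells 29.9. After thinning, H2-DMa was found in 0.167% of beta cells and 0.611% of delta cells, against 47.4% of macrophages. Without thinning the shares were 1.40%, 1.40% and 67.2%, at median depths of 8060, 2366.5 and 1702.5 UMIs. H2-DMa overlaps Brd2 and CR974462.3, and the origin of these few reads was not tested. Its partner H2-DMb1 had 1 UMI in all beta cells, and H2-Oa and H2-Ob had none, which allows up to 3 UMIs each.

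H2-Eb1 alone of 5 members tested was called higher in alpha than in beta cells, no larger a share than that of all genes given below. It had 1.503 and 4.62 CPM in alpha cells of the HC mice and 1.29, 0.495 and 5.16 in those of the chow mice. Beta cells had 0.829 and 1.21 in the HC mice and 0.340, 0.394 and 0.891 in the chow mice. The level was higher in alpha cells within each mouse, and the log2 difference was 1.00 ± 0.304 (SE, edgeR adjusted p = 0.00267), where 62.3% of 12679 genes were called and 30.7% were higher. The call was lost without the mouse as a block, in DESeq2 and without chow mouse 3. Of 25 genes of the pathway list tested, 9 were higher and 7 lower in alpha cells. Of the 279 class II UMIs of alpha cells, 154 lay in 7 cells, and all 7 held 2 or more UMIs of the macrophage genes.

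Macrophages varied widely among themselves. With each cell thinned to 1000 UMIs, the median macrophage held 81 and 44 UMIs of H2-Aa, H2-Ab1, H2-Eb1 and Cd74 together in HC mice 1 and 2, and 67, 52 and 37 in chow mice 1, 2 and 3. The quartiles over all 454 cells were 18.25 and 84.75, and 26 cells held none. Sub-clustering without the 10 genes set apart 61 cells led by Mrc1, Ccl8 and Pf4, genes of tissue-resident macrophages, with a median of 26. Another 38 cells led by Spp1, Fabp5 and Gpnmb, genes of lipid-handling macrophages, had a median of 11.5, and 80 cells led by genes of beta, alpha or endothelial cells had 11.5 as well. The remaining 275 cells, called the common sub-clusters here and including 8 dividing cells, had a median of 78. Their medians were 90 and 67 in the HC mice and 73, 63 and 77 in the chow mice.

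**Figure D3:**
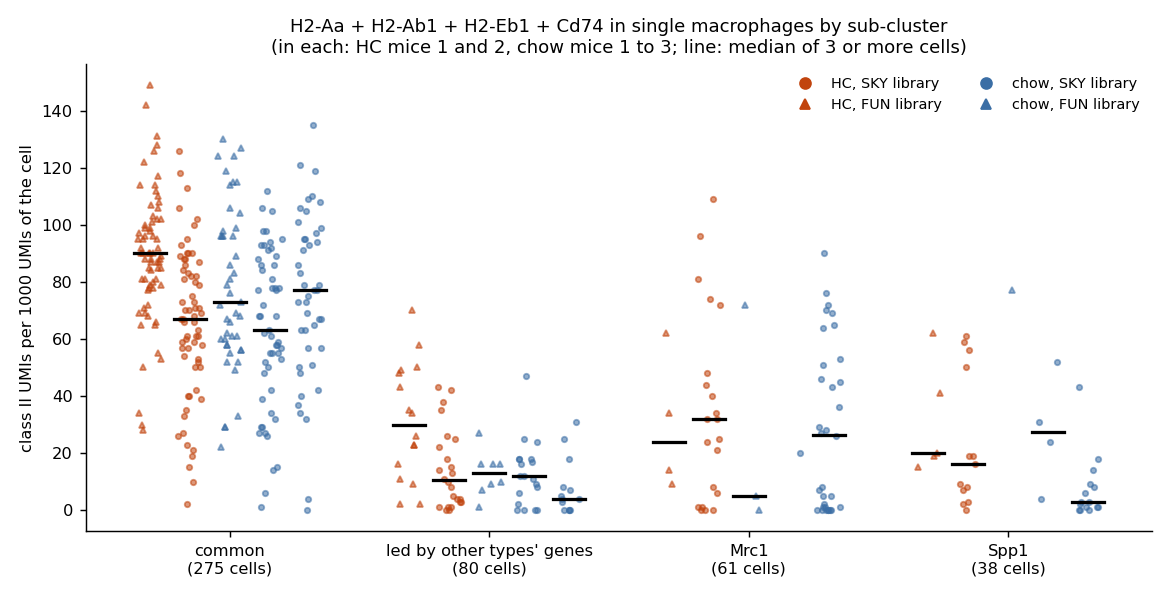
UMIs of H2-Aa, H2-Ab1, H2-Eb1 and Cd74 together per 1000 UMIs in single macrophages, by sub-cluster and mouse (orange HC, blue chow, circles SKY, triangles FUN); lines are medians of 3 or more cells. The common sub-clusters have a median of 78, against 26 in the Mrc1 cells and 11.5 in the Spp1 cells.

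The Mrc1 cells were spread unevenly over the mice. They were 4 of 94 macrophages in HC mouse 1 and 21 of 123 in HC mouse 2 (4.26% and 17.1%), and 3 of 57, 1 of 77 and 32 of 103 in chow mice 1, 2 and 3 (5.26%, 1.299% and 31.1%). The Spp1 cells were 5.32% and 10.6% in the HC mice and 1.75%, 5.19% and 14.6% in the chow mice. HC mouse 2 and chow mouse 3 thus had most of both, and they also had the lowest median macrophages. In the summed Mrc1 cells of those mice, Cd74 stood at 17605 and 14092 CPM, against 32986 and 34248 in their common sub-clusters. H2-Aa was lower there as well, at 6075 and 4423 CPM in the Mrc1 cells against 10460 and 11897 in the common sub-clusters.

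The diet comparison asks whether the HC diet changes class II RNA, and no member passed the test in the 6 cell types in which members could be tested, macrophages, endothelial, beta, alpha, stromal and ductal cells. The Ccl17 cluster and acinar cells were not tested by diet. In macrophages Cd74 had 29145 and 15325 CPM in HC mice 1 and 2 and 22456, 16358 and 13520 in chow mice 1, 2 and 3. H2-Ab1 had 9123 and 5137 in the HC mice and 5890, 4726 and 4534 in the chow mice, and H2-DMa 714 and 445 against 578, 431 and 496. HC mouse 1 was the highest of all for each of these 3 genes and HC mouse 2 fell among the chow mice, so the groups overlapped. H2-DMb2 had 79.3 and 95.8 CPM in the HC mice and 42.4, 77.5 and 50.3 in the chow mice, on 87 UMIs in all. Here the groups did not overlap, which with 2 and 3 mice can arise by chance. The share of all genes without overlap is not given here.

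Of the 8 members tested in macrophages none was called in edgeR, where 0.0806% of 2480 genes were called, and none had an unadjusted p under 0.05. DESeq2 called none of 10. The log2 differences ran between -0.34 for Ciita and 0.49 ± 0.371 for H2-DMb2 (SE, adjusted p = 0.999 for each of the 8). The 95% interval was -0.55 to 0.87 for Cd74, -0.15 to 0.78 for H2-Ab1 and -0.27 to 0.74 for H2-Aa, which leaves room for differences of that size in either direction. The median of the 8 was 0.19, against -0.01 over all genes tested. Without HC mouse 1, or with age as a term, the sign turned for H2-Aa, H2-Ab1, H2-Eb1, Cd74, H2-DMa and H2-DMb1. Within the FUN libraries and within the SKY libraries, the log2 difference between HC and chow was 0.39 and 0.14 for H2-Ab1 and 0.22 and 0.14 for H2-Aa, with no error since FUN holds 1 mouse of each diet.

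In endothelial cells H2-Aa, H2-Ab1, H2-Eb1 and Cd74 were higher in HC than in chow mice within the FUN libraries and lower within the SKY libraries. H2-DMa, H2-DMb1 and H2-DMb2, on 27, 16 and 5 UMIs, were higher in HC mice within both prefixes, and Ciita, on 3, was lower in both. H2-Ab1 stood at 206 CPM in HC mouse 1 against 56.8 in chow mouse 1, and at 29.1 in HC mouse 2 against 38.03 and 63.7 in chow mice 2 and 3. Cd74 stood at 240 and 76.5 in HC mice 1 and 2 and 192, 99.6 and 201 in chow mice 1, 2 and 3. None of 4 members was called in edgeR, nor had any an unadjusted p under 0.05, where 0% of 6055 genes were called, and DESeq2 called none of 8. In beta cells H2-Ab1 had 0.702 and 0.992 CPM in the HC mice and 0.170, 0.236 and 0.644 in the chow mice, on 51 UMIs in all. These groups did not overlap, and the share of all genes without overlap is not given here. The log2 difference of H2-Ab1, 1.21 ± 0.553, had an adjusted p of 0.949 in edgeR (unadjusted p = 0.0483). It was the only one of 5 members with an unadjusted p under 0.05, where 0.00842% of 11876 genes were called. DESeq2 called none of 5.

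In alpha cells none of 3 members was called (0.0558% of 10748 genes), in stromal cells none of 2 (0% of 2681) and in ductal cells none of 3 (0% of 6456). None of these 8 tests had an unadjusted p under 0.05, and DESeq2 called no member in these types. No member passed the filter on low counts in delta cells, where 0.0221% of 9031 genes were called. Of the pathway list, no gene was called for diet in any of the 7 types tested. In macrophages the smallest p of the 16 tested was that of Cd86, a costimulator (log2 difference 0.69 ± 0.349, SE, edgeR adjusted p = 0.999).

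**Figure D4:**
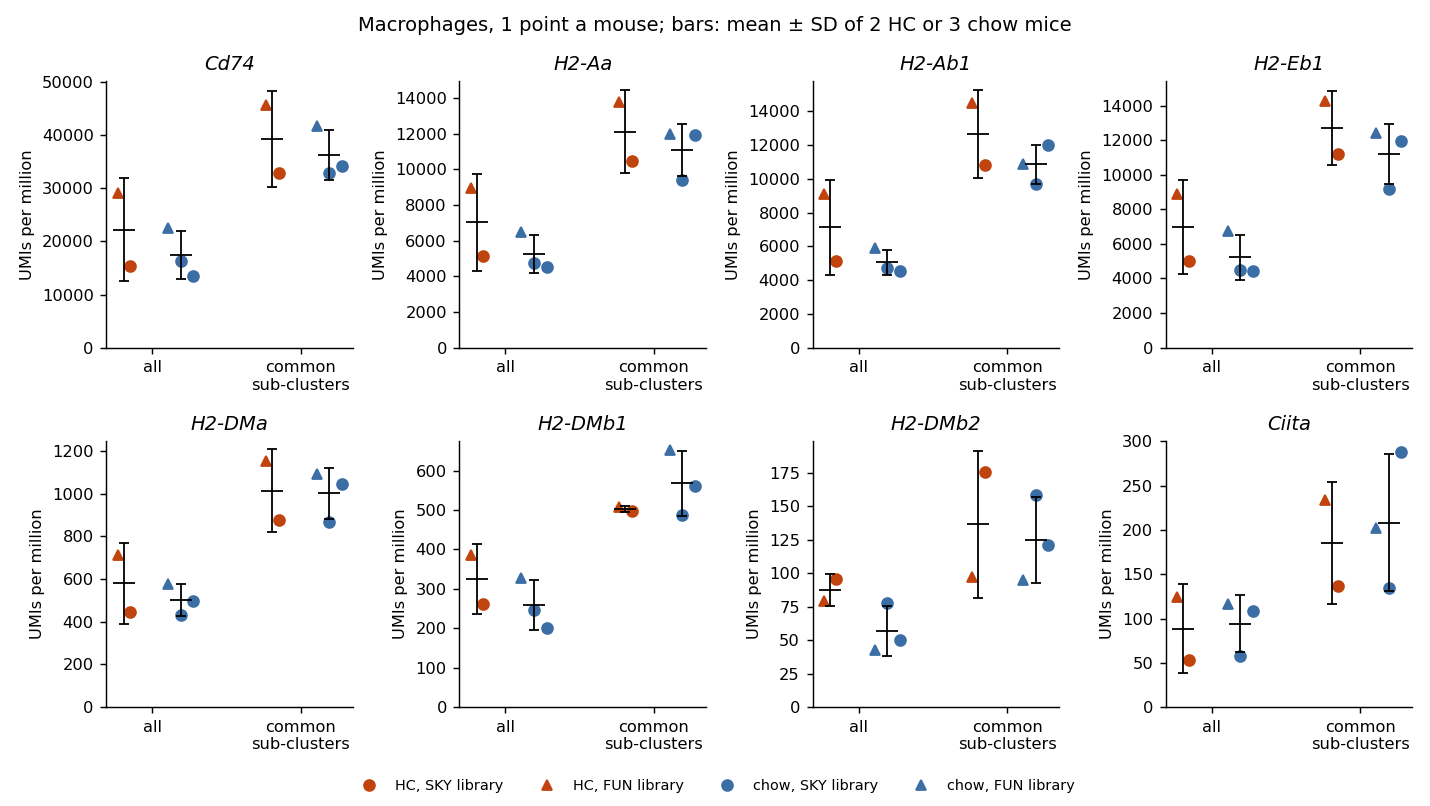
Levels of 8 members in macrophages, in CPM, over all macrophages and over the common sub-clusters; points are mice (orange HC, blue chow, circles SKY, triangles FUN) and bars the mean ± SD of 2 HC or 3 chow mice. Over all macrophages the FUN mice are highest for Cd74, with 29145 and 22456 CPM.

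By the prefix of the library name, Cd74 and the 3 classical chains were lower in SKY than in FUN macrophages. Cd74 had 15325, 16358 and 13520 CPM in the SKY mice (HC mouse 2, chow mice 2 and 3) and 29145 and 22456 in the FUN mice (HC mouse 1, chow mouse 1). H2-Eb1 had 5039, 4478 and 4425 in the SKY mice and 8890 and 6743 in the FUN mice, and the groups did not overlap for either gene. H2-Aa and H2-Ab1 did not overlap either, with a highest SKY level of 5106 and 5137 and a lowest FUN level of 6462 and 5890. For prefix too, the share of all genes without overlap is not given here. With diet as a term, the SKY over FUN log2 difference was -0.77 ± 0.0985 for Cd74 (SE, edgeR adjusted p = 0.00156) and -0.73 ± 0.101 for H2-Eb1 (adjusted p = 0.00156). It was -0.66 ± 0.103 for H2-Aa (adjusted p = 0.00501) and -0.60 ± 0.108 for H2-Ab1 (adjusted p = 0.0128).

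These 4 of 8 tested members were called, where 0.565% of 2480 genes were called in either direction and 0.282% lower. H2-DMa, H2-DMb1 and Ciita had log2 differences of -0.52, -0.59 and -0.82 with adjusted p of 0.441, 0.428 and 0.445, and H2-DMb2 had 0.38 (adjusted p = 0.877). The median of the 8 was -0.63, against 0.00 over all genes tested. Per 100 UMIs of C1qa, C1qb and C1qc, the 4 genes together had 285, 334 and 266 UMIs in the SKY mice and 381 and 370 in the FUN mice, without overlap. Per 100 Tyrobp and Fcer1g UMIs they had 817, 1001 and 709 in the SKY mice and 1454 and 1433 in the FUN mice. The 11 beta cell markers together overlapped, at 99164, 246696 and 206257 CPM in macrophages of the SKY mice and 102999 and 284670 in those of the FUN mice.

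The makeup of the macrophages moved with the prefix in part. The Mrc1 and Spp1 cells were most frequent in HC mouse 2 and chow mouse 3, both SKY, but not in chow mouse 2, the remaining SKY mouse, which had 1 Mrc1 cell. Within the common sub-clusters Cd74 had 32986, 32895 and 34248 CPM in the SKY mice and 45780 and 41767 in the FUN mice, still without overlap. This too can arise by chance, and the share of all genes without overlap is not given here. The log2 difference of Cd74 in the common sub-clusters was -0.39 with an adjusted p of 0.152 in edgeR, and none of the 4 genes was called. DESeq2 called no member over all macrophages (Cd74 log2 difference -0.74, adjusted p = 0.0719), nor was any called with age in place of diet, where Cd74 had -0.76 (adjusted p = 0.407). Without HC mouse 1, 2 members were called, and without chow mouse 1 or chow mouse 2, 1 was. Without the macrophages led by other types' genes 2 members were called, with Cd74 at -0.73 (adjusted p = 0.343). The FUN mice were 7 and 8 weeks old and the SKY mice 9, 10 and 10, so prefix and age cannot be told apart.

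**Figure D5:**
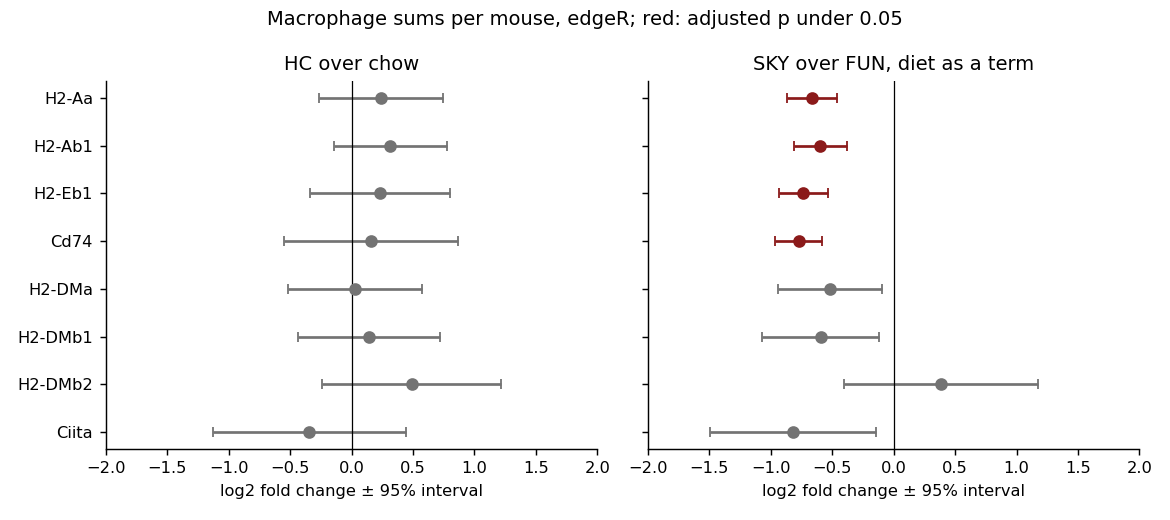
Log2 differences of 8 members in macrophages with 95% intervals, HC over chow on the left and SKY over FUN with diet as a term on the right; red marks an edgeR adjusted p under 0.05. On the right Cd74 stands at -0.77 and H2-Eb1 at -0.73, while on the left all 8 intervals include 0.

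In the other cell types tested no member was called by prefix. The Ccl17 cluster, which was not tested by prefix, had Cd74 at 21883, 21100 and 24171 CPM in the SKY mice and 19822 and 27688 in the FUN mice, which overlap. Among the 5 members tested in beta cells 3 had an unadjusted p under 0.05, where 0.977% of 11876 genes were called. Their log2 differences were 1.52 ± 0.427 for H2-Aa (SE, edgeR adjusted p = 0.184), 0.89 ± 0.33 for Cd74 and 0.98 ± 0.452 for H2-Eb1 (adjusted p = 0.462 and 0.634). In endothelial cells the 4 members tested had log2 differences between -1.14 and -0.26 and none had an unadjusted p under 0.05 (0.396% of 6055 genes were called). None of 3 members was called in alpha cells (0.958% of genes) or in ductal cells (3.08%), and none of these had an unadjusted p under 0.05. In stromal cells both members tested, H2-Aa and Cd74, had an unadjusted p under 0.05 (adjusted p = 0.734 and 0.611, 0.0373% of genes called), on the 2 cells described above, both from SKY mice. No member could be tested in delta cells, where 1.07% of genes were called. DESeq2 called no member by prefix in any of these types, but gave an adjusted p to none in endothelial, beta and alpha cells. No gene of the pathway list was called by prefix in any of the 7 types tested. In macrophages Cst3, which encodes the cathepsin inhibitor cystatin C, came nearest at -0.64 ± 0.129 (adjusted p = 0.0916).

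Across the 8 named cell types and 5 mice (40 points of log2 CPM, after adding 10), the genes most like the mean of H2-Aa, H2-Ab1, H2-Eb1 and Cd74 were Man2b1 (Pearson r = 0.951), Ctss (0.949), Batf3 (0.949), Vsir (0.946) and Cyth4 (0.945). C1qb, Inpp5d, P2ry6, Cd52 and Cybb followed down to 0.942. These points share libraries and depth, and the correlation mainly sets macrophages apart from the rest. The H2-DM genes and Ciita reached between 0.941 and 0.961 by the same measure, whereas H2-Ob reached 0.711 and H2-Oa 0.576.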

How the data were processed

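The authors' deposited matrices give, for each cell barcode, the raw UMI count of every gene, made with Cell Ranger 4.0.0 on mm10 per the submitters' processing notes; the annotation release is not given in the sources used here. Symbols came from a GRCm38 annotation (32158 of 32285 rows matched). Cells with at least 1000 UMIs, 500 genes and at most 15% mitochondrial UMIs were kept, normalised and clustered in scanpy 1.11.5 (2000 variable genes without the members, 30 components, 15 neighbours, Leiden resolution 1). A cluster was named from at least 3 markers among its 10 leading genes. No doublet caller was run. Counts were summed per mouse and type, for types with at least 20 cells in every mouse (the Ccl17 cluster, 10), and compared with edgeR 4.0.16 in R 4.3.3 with diet as the term, prefix and diet, or cell type and mouse (TMM scaling; filterByExpr; two-sided quasi-likelihood test, robust; p-values adjusted over all genes by Benjamini-Hochberg). Intervals of log2 differences are normal approximations. The contrast planned for dendritic cells was run on the Ccl17 cluster. DESeq2 1.42.0 was an alternative. The test was checked on simulated counts. The members and lists, as well as the rule that all 10 members and the 4 pathway genes of smallest p are named, were chosen with earlier results of these data known. Genes named outside that rule (markers, H2-Eb2, Brd2) were chosen after their values were seen. Some genes that the rule or the marker lists would name are not reported here.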

Additional observations from a re-analysis of the deposited data

Results flagged for a closer look

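H2-Ab1 was higher in HC than in chow mice in beta cells and lower in the Ccl17 cluster, with every HC mouse on one side of every chow mouse in both. In beta cells the HC mean was 0.497 CPM above the chow mean, with 0.702 and 0.992 in the HC mice and 0.170, 0.236 and 0.644 in the chow mice. In the Ccl17 cluster the HC mean less the chow mean was -2496 CPM, with 6575 and 8221 in the HC mice and 11365, 9301 and 9016 in the chow mice. The difference between these cell types was not tested, and the beta cell values rest on 51 UMIs. With 2 HC and 3 chow mice, such a separation can arise by chance in either direction. The pair of cell types was picked out after the values were seen. How many pairs were searched, and the share of all genes separated in this way, are not given here. The pattern is therefore a description and not read as a diet effect that differs between cell types.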

How the results depend on the processing

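No paired analysis was possible because the HC and chow mice share replicate numbers only by accession order. In the cell type contrasts the mouse is the block; without the replicate block, H2-Eb1 was no longer called in alpha over beta cells (0 members) and no other count of members left the range of 1.5 times. In macrophage over endothelial cells 8 members were called in the main analysis and under each of 10 alternatives. This count includes the 4 that passed the filter on low counts through macrophages, whose calls are not read as a result. In endothelial over beta cells 4 to 8 were called, 6 of them in the main analysis. The 6 include H2-DMb1, whose call is not read as a result either. The alternatives with hormone UMIs left out, with C1qb and C1qc only, with macrophage sub-clusters, and with insulin in the prefix comparison were chosen after seeing the data.

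Members called for SKY over FUN in macrophages, 4 in the main analysis, were 0 with DESeq2, 0 with age in place of diet and 0 in the common sub-clusters. There were 1 with the stricter cell filter, 2 without the sub-clusters led by other types' genes, and between 1 and 3 when 1 mouse was left out. Leaving out 1 mouse gave 0 to 1 in alpha cells by prefix, 0 to 1 in endothelial over stromal, 0 to 2 in alpha over beta cells, and 0 to 3 in the Ccl17 cluster over macrophages (3 in the main analysis, with H2-Oa). Without a filter on low counts, 3 members were called by prefix in stromal cells. Alpha over beta cells gave 0 with DESeq2 and 2 with the members kept in the clustering, and the Ccl17 cluster over macrophages gave 0 among cells with under 20% insulin UMIs.

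The HC over chow log2 differences in macrophages, called under none of the alternatives, changed sign in these cases. With age as a term they were -0.22 (H2-Aa), -0.11 (H2-Ab1), -0.27 (H2-Eb1), -0.38 (Cd74), -0.33 (H2-DMa) and -0.24 (H2-DMb1). Among cells with under 20% insulin UMIs they were -0.068 (Cd74), -0.18 (H2-DMa) and -0.12 (H2-DMb1). H2-DMb1 had -0.17 in the common sub-clusters, H2-DMa -0.074 with prefix as a term and -0.018 at Leiden resolution 0.5, and Ciita 0.42 with the diet of the title. Leaving out 1 mouse, the ranges were -0.17 to 0.53 (H2-Aa), -0.10 to 0.62 (H2-Ab1), -0.18 to 0.53 (H2-Eb1), -0.32 to 0.50 (Cd74), -0.30 to 0.28 (H2-DMa), -0.10 to 0.39 (H2-DMb1) and -0.94 to 0.16 (Ciita).

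As a mean over cells, Cd74 came to 28879 CPM in macrophages and 26342 in the Ccl17 cluster. It was 26815 in macrophages under 20% insulin UMIs, and with hormone UMIs left out of the total 26375 in the Ccl17 cluster and 5.43 in beta cells. The mean share of cells with a Cd74 UMI was 32.6% unthinned and 23.7% at 2000 UMIs in ductal cells, and 1.16% and 0.325% in beta cells. Class II UMIs per 100 reference UMIs were 1015 with Tyrobp and Fcer1g and 605 with C1qb and C1qc in macrophages (323 with C1q), 3471 and 3314 in endothelial cells (828), and 255 and 1075 in beta cells (32.6). The cause of these changes was not tested, except that C1qa was counted in endocrine cells almost without C1qb and C1qc (1020 UMIs against 19 and 9 in beta cells with fewer than 10 class II UMIs). Depth limits H2-Oa and H2-Ob, with 5 and 3 UMIs in all macrophages, and every member in endocrine cells.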
